A study of Homo sapiens with 18 samples.

Results

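Class I molecules show peptides from inside a cell to CD8 T cells. The proteasome cuts the peptides, the transporter TAP1/TAP2 carries them into the endoplasmic reticulum, tapasin (TAPBP) bridges the transporter to a waiting class I molecule, and a heavy chain (HLA-B, HLA-C, HLA-E or HLA-F) leaves for the surface with its light chain, beta-2-microglobulin (B2M). IFI30 is the interferon gamma-inducible lysosomal thiol reductase, which opens disulfide bonds of proteins taken up into endosomes and lysosomes and is best known from class II presentation and cross-presentation. These 9 genes, HLA-B, HLA-C, HLA-E, HLA-F, B2M, TAP1, TAP2, TAPBP and IFI30, were taken by symbol from 15092 genes of the PC3 table and 20967 genes of the 22RV1 tables. The PC3 table lists 5 of them, of which 3 had enough reads to be tested, and the 22RV1 tables list 7, of which 4 were tested.

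RNA was sequenced from 2 human prostate cancer lines 24 h after treatment. PC3, a metastatic castration-resistant model, received 10 µM canagliflozin (CANA), an inhibitor of sodium-glucose cotransport used in diabetes, or DMSO as control. 22RV1, a castration-resistant model, received 10 µM CANA plus 5 Gy of radiation (RT), 5 Gy alone, 10 µM CANA alone, or DMSO as control. Each group holds 3 libraries, A, B and C, which the study calls different replicates. Its methods speak of independent experiments in general, but for these libraries no source used here says outright that they are separate cultures, so p-values measure the spread between libraries, which may be technical. Each line stands for 1 tumour, and no immune cells were part of the cultures as described.

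Some markers told the lines apart and others were present in both. KLK3, which encodes prostate-specific antigen, had rlog values (reads on a log2 scale) of 7.53 to 7.69 in control 22RV1 cells and was not listed in PC3, where CAV1 had 11644 to 12272 normalized reads in control cells. In control 22RV1 cells CAV1 had rlog values of 6.26 to 6.32. HOXB13 and FOXA1, chosen as 22RV1 markers, had 3219 to 3401 and 1816 to 2049 normalized reads in control PC3 cells. CD44, chosen as a PC3 marker, had rlog values of 10.92 to 11.01 in control 22RV1 cells. The PC3 libraries held 15807924 to 28327063 recovered reads, with CANA replicate B the smallest. That library also lay apart, at 50.5 on the first principal component (66.1% of the variance), against -17.3 to -1.58 in the other 5, so differences tested in PC3 are also given without it. Depth per library of 22RV1 is unknown. The first component of 22RV1 (83.4%) separated the 6 irradiated from the 6 unirradiated libraries. Of 12 leukocyte markers, 7 were listed in 22RV1, and the defining ones PTPRC and LYZ had rlog values under 1 in every library. In bulk RNA, fewer cells of a type and less RNA per cell cannot be told apart.

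Of the members, 7 lie close together on chromosome 6, while B2M lies on chromosome 15 and IFI30 on chromosome 19. To show what an aligner has to place, a stretch of 50 coding bases from the middle of the longest coding exon of each member is printed in hg38, with the number of exact copies on the 261 alternate contigs of that assembly, which are extra versions of variable regions. All are read 5′ to 3′ on the gene's own strand and lie in coding exons of GENCODE 44.
B2M, chr15:44715537-44715586, plus strand, 1 copy: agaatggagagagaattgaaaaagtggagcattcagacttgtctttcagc
HLA-B, chr6:31355429-31355478, minus strand, 1 copy: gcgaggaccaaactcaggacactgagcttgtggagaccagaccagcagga
HLA-C, chr6:31270322-31270371, minus strand, 1 copy: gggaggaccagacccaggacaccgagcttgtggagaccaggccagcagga
HLA-E, chr6:30490352-30490401, plus strand, 6 copies: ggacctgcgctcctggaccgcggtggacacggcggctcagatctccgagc
HLA-F, chr6:29727002-29727051, plus strand, 5 copies: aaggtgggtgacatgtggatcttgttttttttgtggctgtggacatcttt
TAP1, chr6:32853312-32853361, minus strand, 7 copies: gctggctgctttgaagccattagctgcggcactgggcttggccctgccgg
TAP2, chr6:32837962-32838011, minus strand, 7 copies: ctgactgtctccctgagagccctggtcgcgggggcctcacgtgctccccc
TAPBP, chr6:33305163-33305212, minus strand, 4 copies: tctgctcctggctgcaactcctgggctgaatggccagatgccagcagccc
IFI30, chr19:18175106-18175155, plus strand, 0 copies: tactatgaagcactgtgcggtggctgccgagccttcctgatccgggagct
The HLA-B and HLA-C stretches come from the same part of the heavy chain and share 45 of 50 bases, so reads from these paralogs can be hard to assign and their values are uncertain.

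Across all exons, the members differed sharply in how much of their sequence recurs on alternate contigs. Every 50-base exon window of HLA-E, TAP1 and TAPBP had a copy there (100%), as had 99.5% of windows of TAP2, 96.1% of HLA-F, 93.7% of B2M, 91.1% of HLA-C and 74.8% of HLA-B. For IFI30 the share was 1.10%. Within coding exons of B2M, 248 of 248 windows recurred, and 182 of its 2876 exon windows were found only on chromosome 15. Whether the index used by the authors held alternate contigs, and how reads with several places were counted, is not given in the sources used here.

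The 5 members with the highest shares were those with the lowest listed levels. HLA-E and TAP1 were in no table used here. TAPBP and HLA-F were listed in 22RV1 only, with authors' means of 0.108 and 0.0586 normalized reads over the 12 libraries, and TAP2 had 1.38. IFI30 had 3761, B2M 296, HLA-C 129.5 and HLA-B 82.8. Per kilobase of exon, the authors' means were 1605 for IFI30 and 94.9 for B2M, the light chain that every class I heavy chain needs.

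The pattern held across the protein-coding genes of chromosome 6, members included. Of 831 genes with under 10% of their windows on alternate contigs, 586 (70.5%) reached the mean rlog of 3 that was required for testing in 22RV1, and 593 (71.4%) were in the PC3 table. Of 171 genes with over 90%, 8 (4.68%) reached it and 4 (2.34%) were in the PC3 table. Genes that every cell uses were among those with over 90%: RPS18 of the small ribosomal subunit was not listed at all, the tubulin gene TUBB had an authors' mean of 2.82 normalized reads and CSNK2B, a casein kinase subunit, 0.0783 (3 examples chosen after their values were seen). The low values of HLA-E, HLA-F, TAP1, TAP2 and TAPBP are therefore given as listed, with no statement on expression, and levels of B2M, HLA-B and HLA-C as those of the reads that were counted.

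**Figure D1:**
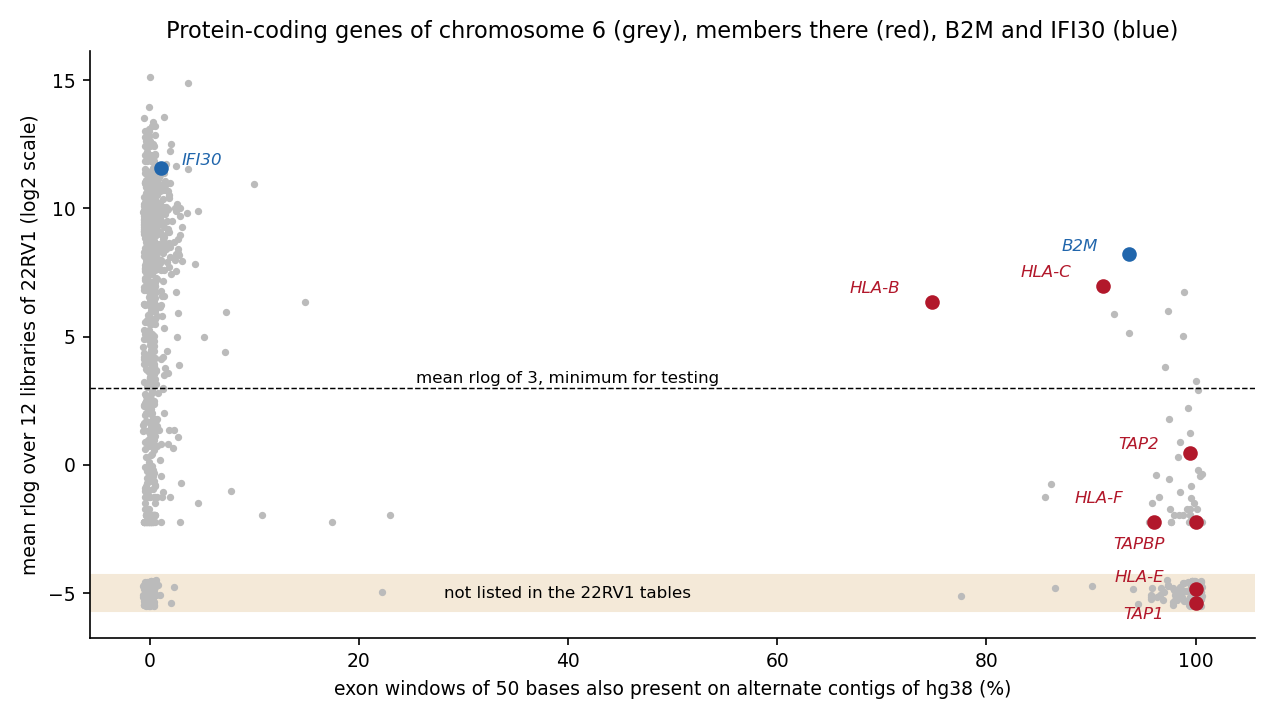
Mean rlog over the 12 libraries of 22RV1 (y axis, log2 scale) against the percent of 50-base exon windows that recur on alternate contigs of hg38 (x axis) for protein-coding genes of chromosome 6 (grey), the members there (red) and B2M and IFI30 (blue). Points in the band are not listed, and IFI30 at 1.10% lies among the measured genes while HLA-E and TAP1 at 100% are not listed.

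Class I promoters are known to be driven through elements for interferon, NF-kB and the RFX, CREB and NF-Y factors, and these elements were searched for in the members' promoters, of which short stretches are shown to set IFI30 beside the class I genes. Of the 9 members, 8 had a window of 250 bases before and 50 bases after a start site in RefSeq (GRCh38.p14). Matches on either strand, overlaps counted, were sought for ISRE (GAAA, any 2 bases, GAAA, in 3.57% of 35116 windows of all genes), NF-kB (GGGA, any base, TTTCC, 0.558%), GAS (TTC, any 3 bases, GAA, 7.66%), CRE (TGACG, 24.6%) and NF-Y (CCAAT, 34.6%), and capitals mark a match to any of them. Each stretch begins at the first ISRE match, without one at the first CRE match, and without either at the first NF-Y match.
B2M, chr15:44711373-44711402, plus strand: GAAAAGGAAACTGAAAacgGGAAAGTCCCt
TAP1, chr6:32853809-32853838, minus strand: TTTCGATTTCGCTTTCccctaaatggctga
TAP2, chr6:32838768-32838797, minus strand: GAAAGCGAAAgctgcccgagcccTGACGcc
TAPBP, chr6:33314079-33314098, minus strand: GAAAGTGAAAGTGAAAggag
HLA-F, chr6:29723278-29723307, plus strand: TTTCTCTTTCtctcccaacccgtgtcaggt
HLA-B, chr6:31357256-31357285, minus strand: TGACGcgtccccacttcccactcccATTGG
HLA-C, chr6:31272168-31272197, minus strand: TGACGcgtccCCAATtcccactcccATTGG
IFI30, chr19:18173630-18173659, plus strand: CCAATggcctcgtgactggggacccagcac
B2M had 2 overlapping ISRE matches, at -144 and -138 from the start site, with an NF-kB match at -125, and TAPBP and the TAP1 window shown had 2 overlapping ISRE matches each. TAP1 has another start-site window, chr6:32852712-32853011, with 0 ISRE and 0 NF-kB matches and 1 GAS match. HLA-B and HLA-C had 0 ISRE and 0 NF-kB matches. In the IFI30 window there was 1 match, CCAAT at -183. A match describes letters only, and elements spelled otherwise than the letters searched were not sought, so 0 matches do not show that an element is absent.

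Of the 4 members tested in 22RV1 cells, radiation raised 1, IFI30. IFI30 had rlog values of 12.20, 12.15 and 12.22 in RT libraries A, B and C, against 10.91, 10.92 and 10.81 in control libraries. The RT libraries all lay above the controls, as in 30.0% of all genes tested, and the gap was many times wider than the spread within either group. The means were 12.19 ± 0.04 with RT and 10.88 ± 0.06 in control (SD, n = 3 each), a log2 difference of 1.31 (SE 0.04, 95% interval 1.23 to 1.38, limma adjusted p = 2.55e-20), or 2.48-fold on the rlog scale. Of 14563 genes tested, 28.4% passed in the higher direction, and IFI30 ranked 12 among them by size, so that 0.0824% of genes had a difference at least as high. Over the 12 alternatives, each library left out in turn included, its log2 difference was 1.28 to 1.33. Some fibroblast markers moved with radiation too. Of 8 listed, 4 could be tested and all 4 were higher with RT (median log2 difference 0.32, LUM 0.64). The other 4 had a mean rlog under 3 and were not tested. DCN had means of 2.98 with RT and 2.95 in control, PDGFRB 2.85 and 2.80, and FAP and POSTN -2.21 in both. The sum of 2 to the power of rlog over the list was 591 to 608 with RT and 476 to 490 in control. The part of these markers in the IFI30 difference was not tested.

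B2M, the shared light chain, did not pass. Its rlog values were 8.09, 8.19 and 8.20 with RT, against 8.31, 8.06 and 8.20 in control cells, so the groups overlapped. The log2 difference was -0.04 (95% interval -0.14 to 0.07, limma adjusted p = 0.578), and the upper bound corresponds to 1.05-fold.

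The heavy chains HLA-B and HLA-C did not pass with radiation either. HLA-B had rlog values of 6.35, 6.31 and 6.49 with RT, against 6.40, 6.34 and 6.26 in control cells. HLA-C had 7.12, 6.87 and 7.05 with RT, against 7.13, 7.23 and 6.76 in control cells, the widest spread of the 4 tested members. The log2 differences were 0.05 for HLA-B (95% interval -0.07 to 0.16) and -0.03 for HLA-C (-0.22 to 0.17), with limma adjusted p of 0.473 and 0.818. The untested members are given as listed. In all 12 libraries TAP2 lay between 0.46 and 0.51, and HLA-F and TAPBP within 0.01 of each other. Since rlog draws such small counts together, these values cannot show whether radiation changed them.

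**Figure D2:**
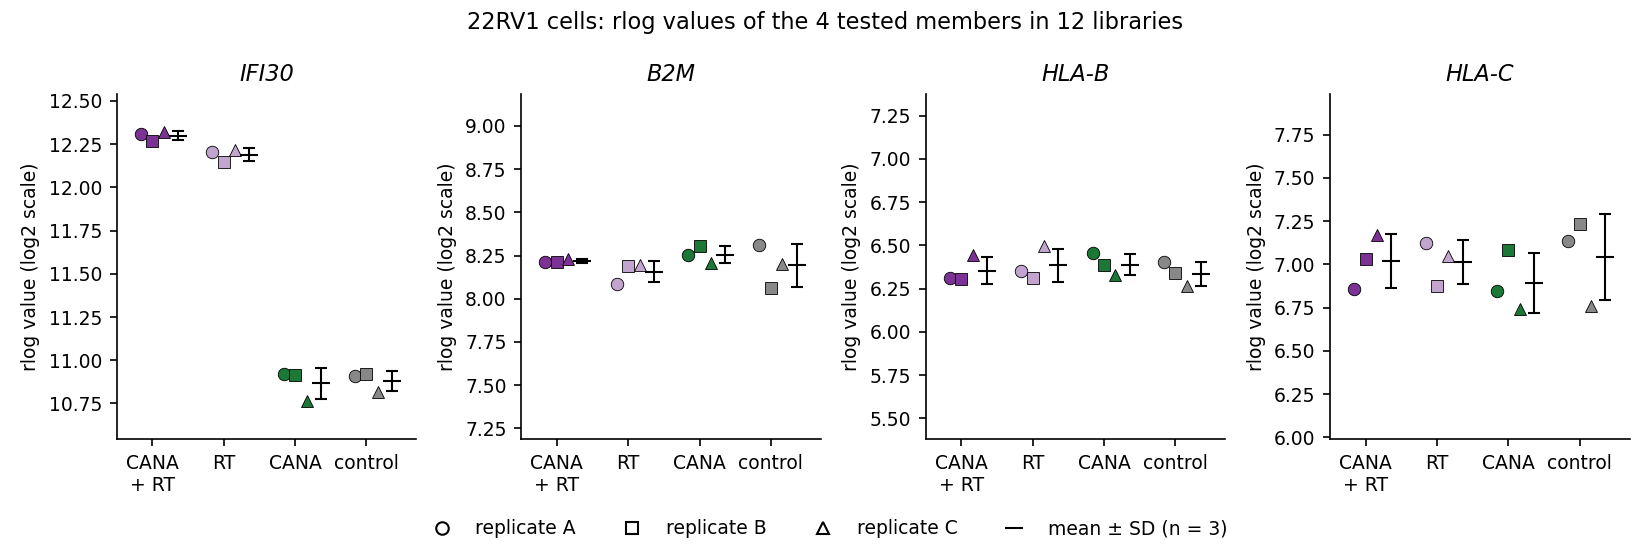
rlog values (y axes, log2 scale, each spanning 2 units) of IFI30, B2M, HLA-B and HLA-C in the CANA + RT, RT, CANA and control libraries of 22RV1 (symbols, replicates A to C), with mean ± SD. IFI30 lay above 12 in the 6 irradiated libraries and below 11 in the 6 others, and the other members overlapped between RT and control.

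With CANA added to RT, IFI30 values were slightly higher than with RT alone, by an amount that did not pass. Its rlog values were 12.31, 12.27 and 12.32 in CANA + RT libraries, against 12.20, 12.15 and 12.22 in RT libraries, so each CANA + RT library lay above every RT library. The mean of CANA + RT was 12.30 ± 0.03, against 12.19 ± 0.04 with RT (SD, n = 3 each). The log2 difference of 0.11 (SE 0.04, 95% interval 0.04 to 0.18), or 7.91%, did not pass over all genes (limma adjusted p = 0.10). In this comparison 12.2% of all genes had the treated libraries wholly above the others and 1.40% passed in that direction. With the spread taken from these 6 libraries alone the adjusted p was 0.00169, where 1188 genes passed in place of 374, and over the 12 alternatives it was 0.00169 to 0.354. Against control cells, CANA + RT gave a log2 difference of 1.42 (95% interval 1.34 to 1.49, limma adjusted p = 4.96e-21), in a comparison where 28.4% of genes passed as higher and that shares its control libraries with the RT comparison.

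B2M with CANA + RT had rlog values of 8.21, 8.21 and 8.23, against 8.09, 8.19 and 8.20 with RT. All 3 lay above the RT libraries, as in 12.2% of all genes tested, by a log2 difference of 0.06 (95% interval -0.05 to 0.17) that did not pass (limma adjusted p = 0.595). HLA-B and HLA-C differed by -0.03 and 0.00, with overlapping libraries and adjusted p of 0.820 and 0.992.

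CANA alone gave no difference beyond the spread of the libraries in the 4 tested members of unirradiated 22RV1 cells. IFI30 had rlog values of 10.92, 10.92 and 10.76 with CANA, against 10.91, 10.92 and 10.81 in control cells, and the log2 difference was -0.01 (95% interval -0.09 to 0.06). B2M had 8.25, 8.31 and 8.21 with CANA, against 8.31, 8.06 and 8.20 in control cells, a difference of 0.06 (-0.04 to 0.17). These libraries overlapped in both genes, as they did for HLA-B (0.05, -0.06 to 0.17) and HLA-C (-0.15, -0.35 to 0.04). The adjusted p was 0.997 for all 4, and none of the 14563 genes passed in either direction (0.0%). Whether the CANA effect on IFI30 differed between irradiated and unirradiated cells was tested as an interaction, at 0.12 on the log2 scale (95% interval 0.02 to 0.23, limma adjusted p = 0.402), a test in which 0.103% of genes passed.

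**Figure D3:**
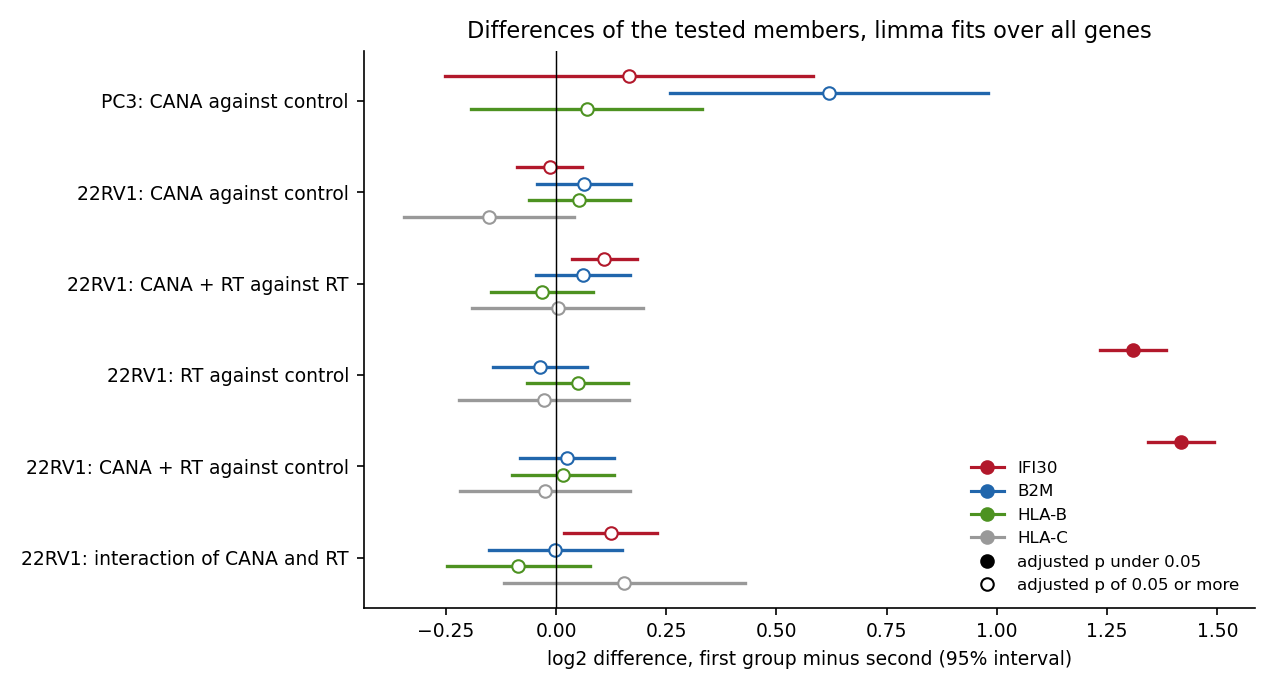
Log2 differences (x axis, first group minus second, lines are 95% intervals from limma) of IFI30, B2M, HLA-B and HLA-C in each comparison, filled where the adjusted p was under 0.05. IFI30 at 1.31 for RT and 1.42 for CANA + RT against control are the filled points, and HLA-C was under the filter in PC3.

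In PC3 cells B2M had the largest difference of the 3 members tested. It had 1886, 2848 and 2068 normalized reads in CANA libraries A, B and C, against 1452, 1373 and 1535 in control libraries. All CANA libraries lay above all controls, which was also so for 17.7% of the 13448 genes tested, and replicate B, the library that stands apart, was the highest. The means were 2267 ± 511 with CANA and 1454 ± 80.9 in control (SD, n = 3 each), a log2 difference of 0.62 (SE 0.15, 95% interval 0.26 to 0.98). It did not pass over all genes (limma adjusted p = 0.248), nor did any gene in either direction (0.0%), although 2485 genes had an unadjusted p under 0.05. edgeR on the recovered reads passed 0 genes too.

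Without CANA replicate B the log2 difference of B2M was 0.44 (95% interval 0.32 to 0.57, limma adjusted p = 7.1e-05), in a fit where 10.4% of genes passed as higher and 9.53% as lower. DESeq2 on the recovered reads of all 6 libraries gave 0.64 with an adjusted p of 0.0244, where 1.96% of genes passed as higher. Of 14 alternatives, B2M passed in these 2, with adjusted p of 7.1e-05 to 0.592 over all of them, and its direction was the same in each. The summed leukocyte markers (5 of 12 listed) were 1284 to 1387 normalized reads with CANA and 1061 to 1118 in control cells, almost all of it CD68, a lysosomal protein not confined to leukocytes, while PTPRC had 9.68 to 11.1 with CANA and 4.19 to 7.36 in control cells. The summed fibroblast markers (5 of 8 listed) were 662 to 1110 with CANA and 1317 to 1468 in control cells, mostly COL1A1. Their part in the B2M difference was not tested.

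IFI30 in PC3 cells had 706, 1045 and 632 normalized reads with CANA, against 715, 686 and 673 in control cells. The groups overlapped, and the higher mean with CANA (794 ± 220, against 691 ± 21.2 in control, SD, n = 3 each) rested on replicate B. The log2 difference was 0.17 (95% interval -0.25 to 0.58, limma adjusted p = 0.586) over all libraries and -0.05 without that replicate.

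HLA-B had 130, 117 and 135 normalized reads with CANA, against 128, 119 and 116 in control cells, a log2 difference of 0.07 (95% interval -0.19 to 0.33, limma adjusted p = 0.725), and 0.13 without CANA replicate B (adjusted p = 0.496). HLA-C and TAP2 had means over the 6 libraries under the 10 normalized reads required for testing and rest on 4 to 15 reads a library. HLA-C had 7.74, 15.9 and 7.79 with CANA, against 4.56, 9.43 and 5.89 in control cells, which overlap. TAP2, the transporter subunit, had 5.81, 5.80 and 4.45 with CANA, against 9.12, 15.7 and 6.62 in control cells. All CANA libraries of TAP2 were lower, as in 17.7% of the genes tested. With no filter on low values the adjusted p were 0.418 for HLA-C and 0.293 for TAP2, and neither was fitted without replicate B. TAP1, TAPBP, HLA-E and HLA-F are not in the PC3 table used here.

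**Figure D4:**
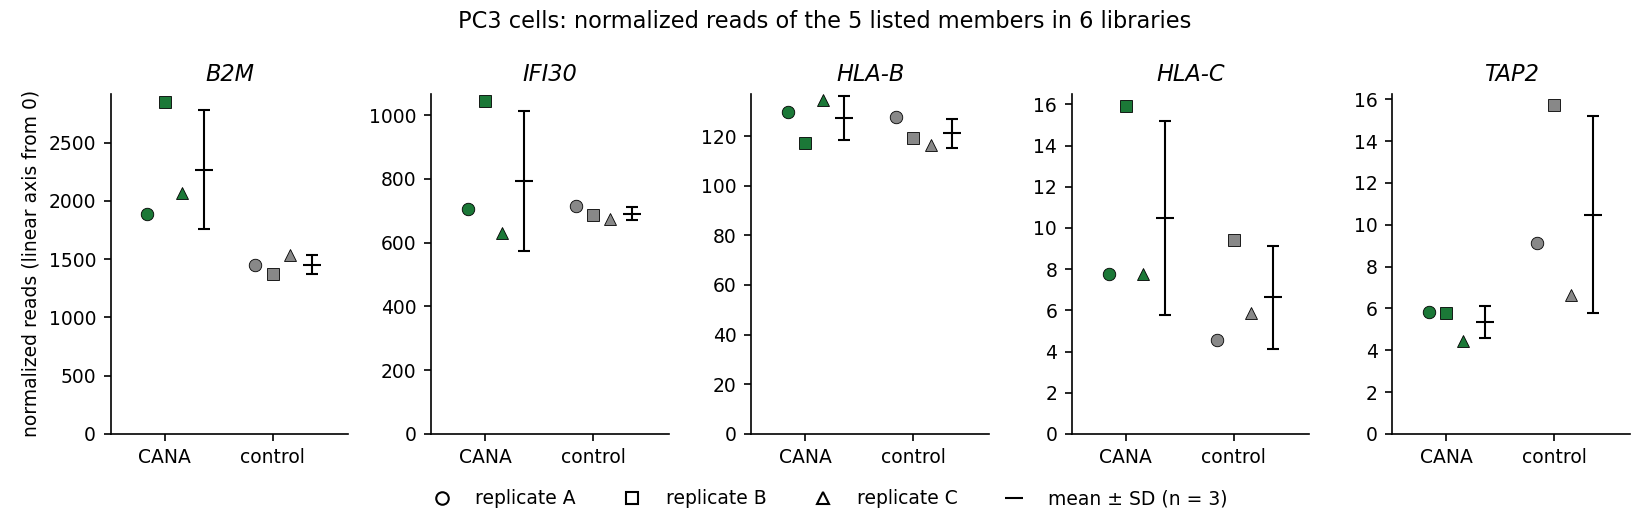
Normalized reads (y axes, linear from 0) of B2M, IFI30, HLA-B, HLA-C and TAP2 in the CANA and control libraries of PC3 (symbols, replicates A to C), with mean ± SD. B2M in CANA libraries starts at 1886, above the highest control at 1535, and CANA replicate B is the highest library for B2M and IFI30.

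The order of levels differed between the lines. In control PC3 cells B2M had 466 normalized reads per kilobase of exon, IFI30 295, HLA-B 26.2, HLA-C 2.64 and TAP2 1.01. In 22RV1 the authors' means per kilobase were 1605 for IFI30, 94.9 for B2M, 51.7 for HLA-C, 17.9 for HLA-B and 0.133 for TAP2, over irradiated and unirradiated libraries together. The 2 tables were normalized separately, so only the order within a line is compared, and it carries the limits of B2M and the HLA genes above.

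Around the members, 5 lists of other pathway genes are read against all genes, of which 28.4% passed as higher and 29.4% as lower with RT against control in 22RV1. Of 11 class I-like molecules, 7 could be tested and 6 passed as higher, 1 as lower, with a median log2 difference of 0.45 beside 0.00 for all genes. PROCR, the endothelial protein C receptor, had rlog values of 9.31, 9.38 and 9.48 with RT, against 8.65, 8.66 and 8.67 in control cells, a difference of 0.73 (SE 0.05). FCGRT, the heavy chain of the neonatal Fc receptor and a partner of B2M, had 6.14, 6.04 and 6.26 with RT, against 5.48, 5.39 and 5.39 in control cells, a difference of 0.73 (SE 0.05). ULBP2, a stress ligand of the natural killer receptor NKG2D, differed by 0.62 (SE 0.05). In all 3 genes the RT libraries lay wholly above the controls, as in 30.0% of all genes tested, and the limma adjusted p were at most 2.76e-11. The tested fibroblast markers given beside IFI30 were higher in the same libraries, while of 12 leukocyte markers 2 could be tested and 0 passed. The part of either list in these differences was not tested.

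Of 5 tested chaperones that fold and load class I molecules, 4 were lower with RT and 0 higher, in a comparison where 29.4% of all genes passed as lower. Their median was -0.10, no larger in size than the median absolute difference of 0.11 over all genes. CALR, the lectin chaperone calreticulin, fell by 0.17 on the log2 scale (SE 0.03), TAPBPL, a tapasin relative that edits peptides, fell by 0.22 (SE 0.05), and UGGT1, which rechecks glycoprotein folding, fell by 0.10 (SE 0.03). All 3 changes were far smaller than that of IFI30.

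Peptide supply and the regulators held genes of both directions, and nothing is read from their counts beside those of all genes. Of 5 peptide supply genes tested of 7, 1 was higher and 2 lower with RT: ERAP2, a trimming peptidase, rose by 0.26 (SE 0.05), while the immunoproteasome subunit PSMB10 fell by 0.35 (SE 0.05) and the activator subunit PSME2 fell by 0.14 (SE 0.03), all with limma adjusted p of at most 0.000424. Of 18 tested regulators of class I genes and interferon gamma signalling, 6 were higher and 4 lower, with a median of 0.08. RFX5, a subunit of the complex that binds class I promoters, rose by 0.46 (SE 0.03), the interferon gamma receptor chain IFNGR2 by 0.33 (SE 0.05) and IRF2, an interferon regulatory factor, by 0.29 (SE 0.05). On the endolysosomal route where IFI30 acts, 4 of 11 genes could be tested, with 1 higher and 2 lower: the proteases CTSD and CTSL fell by 0.19 and 0.15 (SE 0.03 each), and LGMN, the asparagine endopeptidase, rose by 0.08 (SE 0.03).

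**Figure D5:**
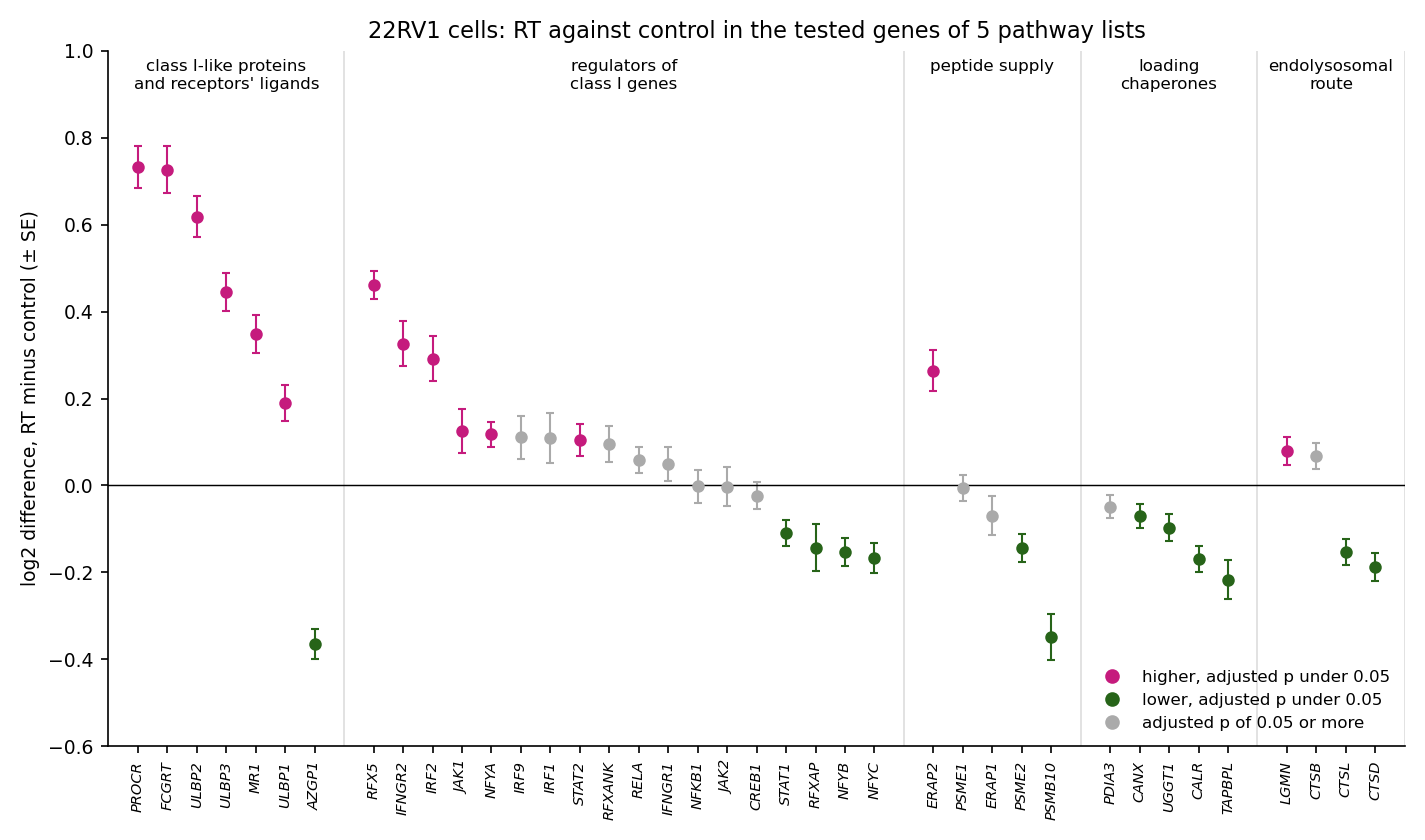
Log2 difference of RT minus control in 22RV1 (y axis, points with SE) for every tested gene of the 5 lists, coloured by direction where the limma adjusted p was under 0.05. The class I-like genes reach 0.73 for PROCR and FCGRT, above all other lists, and 4 of the 5 loading chaperones were lower.

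In CANA + RT against RT, 2 genes of these lists passed, both higher, in a comparison where 1.40% of all genes passed as higher. They were 1 of 7 class I-like genes and 1 of 4 endolysosomal genes tested. None passed of 5 peptide supply genes, 5 loading chaperones and 18 regulators. AZGP1, a secreted class I-like glycoprotein, had rlog values of 10.50, 10.49 and 10.47 with CANA + RT, against 10.30, 10.31 and 10.33 with RT, a log2 difference of 0.17 (SE 0.03, limma adjusted p = 0.00693). AZGP1 means were 10.48 with CANA + RT, 10.31 with RT and 10.68 in control cells, so CANA + RT lay below control. CTSL, the cathepsin named above, had 10.54, 10.56 and 10.56 with CANA + RT, against 10.40, 10.37 and 10.43 with RT, a difference of 0.15 (SE 0.03, limma adjusted p = 0.00643). In both genes the CANA + RT libraries lay wholly above the RT libraries, as in 12.2% of all genes tested. In PC3 cells no list gene passed over all libraries. Without CANA replicate B, 4 did, in a fit where 10.4% of all genes passed as higher and 9.53% as lower. PSME1 (0.16) was higher among 5 peptide supply genes tested, and CALR (0.14) among 5 loading chaperones. Among 19 regulators the NF-kB subunits RELA (-0.20) and NFKB1 (-0.17) were lower. None of the 6 class I-like or 6 endolysosomal genes tested passed, and nothing is read from these counts. NLRC5, the transactivator of class I genes, had 38.7, 39.1 and 36.7 normalized reads with CANA, against 50.2, 48.2 and 56.7 in control PC3 cells, a log2 difference of -0.42 (SE 0.15, limma adjusted p = 0.249), and -0.44 without replicate B (adjusted p = 0.104). CTSS, a lysosomal protease, had 180, 201 and 178 with CANA, against 148, 148 and 138 in control PC3 cells, a difference of 0.36 (SE 0.10, limma adjusted p = 0.248), and 0.31 without replicate B (adjusted p = 0.0538). Both genes were fully apart in PC3, as were 17.7% of all genes tested in each direction, and neither passed.

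IFI30 has an overlapping gene model. It lies at chr19:18173162-18178117 on the plus strand of hg38 (GENCODE 44), inside a readthrough gene at chr19:18153158-18178117 on the same strand that also spans PIK3R2, so strand does not part their reads. PIK3R2, a regulatory subunit of PI3K, differed by 0.32 (SE 0.03) with RT against control, and the neighbours MAST3, MPV17L2 and RAB3A by 0.46, -0.20 and 0.13 (SE 0.04 each, genes chosen after their values were seen). All of these were smaller than the 1.31 of IFI30. Other genes nearby are not given, and the part of the readthrough gene in the IFI30 reads was not tested.

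The genes whose pattern was most like that of IFI30 over the 12 libraries of 22RV1, among 11802 genes whose mean rlog was 6 or more, were PHLDA3 (Pearson r = 0.999), EPS8L2 (0.998) and FDXR (0.998). For B2M they were NME7 (0.865), COX7A2 (0.848) and RPL23A (0.842). The points share libraries and, for IFI30, the step between irradiated and unirradiated cells, so these values describe likeness only.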

How the data were processed

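Per the labels and the study's methods, reads were trimmed with Trimmomatic and cutadapt, aligned to hg38 with HISAT2, and counted per gene on exons of the reverse strand, with DESeq2 for normalization. Versions are not given in the sources used here. The deposited PC3 values are a signal, reads divided by a size factor of each library by the authors. From them 99.9989% of values gave whole reads (counts) within 0.01. The deposited 22RV1 values are log2 values of the rlog function, which draws small counts together, and the authors' mean column is a signal over all 12 libraries. The PC3 table lists 15195 genes, 101 without a symbol and 2 with a repeated symbol, which were left out, and no listed gene has a 0. In further sheets 51 columns of per-sample values have no sample name and were not used, nor were the authors' fold changes and p-values. The table with RT and CANA + RT and that with CANA and control were joined, since another table shares columns with each and differed from them by at most 5.0e-09.

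limma 3.58.1 (R 4.3.3, with trend, two-sided) was fitted to log2(value + 1) in PC3 where a gene's mean reached 10, and to rlog values of all 12 libraries in 22RV1 where it reached 3. A gene passed at a Benjamini-Hochberg adjusted p under 0.05 over all genes tested. PC3 differences are on the log2(value + 1) scale, which understates changes of low genes, and rlog differences are drawn towards 0. edgeR 4.0.16 and DESeq2 1.42.0 on the recovered reads, other pseudocounts, filters, centring, a replicate block and leaving out each library were alternatives. The fits were also run on simulated data, drawn as independent normal values with the same spread in every library of a gene. These hold no library that stands apart as PC3 CANA replicate B does, so nothing is read from that run. The rule for naming genes took all 9 members, of which those not listed or not tested are given once per cell line, at most the 3 members of smallest p of each pathway list per comparison, and the 3 genes most like B2M and IFI30. The members and lists were chosen with earlier results of these data known. Replicate letters are shared between groups, but no source says that they mark a batch. Some genes are left out of this account.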

Additional observations from a re-analysis of the deposited data

How the results depend on the processing

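Of 302 member differences recomputed under alternatives, 299 kept their side of the threshold and 0 changed sign where called. The 3 others became calls: B2M in PC3 without CANA replicate B (0.44) and with DESeq2 on recovered reads (0.64), and IFI30 in CANA + RT against RT in a fit of the compared groups only (0.11). Each of these settings called 1 member as higher in place of 0. In PC3 they called 2686 and 347 genes in place of 0, and leaving out single libraries gave 0 to 2686. In CANA + RT against RT, 374 genes passed, against 105 with no filter, 139 without the trend, 1188 with the compared groups only and 95 to 236 with a library left out. The interaction passed 15 genes, 0 with no filter or without the trend, and 0 to 116 with a library left out.

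Deviations of libraries from their group mean were correlated between groups. For the same letter r was 0.05 to 0.12 in PC3 (1 of 3 pairs over 0.1) and -0.14 to 0.43 in 22RV1 (4 of 18 pairs). For different letters it was -0.16 to 0.07 in PC3 (0 of 6 pairs over 0.1) and -0.37 to 0.43 in 22RV1 (2 of 36 pairs). The ranges overlapped over all pairs of a line, so the letters are not taken to pair samples. Between CANA + RT and RT they did not overlap, at 0.09 to 0.17 for the same letter and -0.13 to 0.04 for different letters. With the replicate block 0 genes passed in PC3 and 479 in CANA + RT against RT, IFI30 differed by 0.11 there (limma adjusted p = 0.0781) and B2M in PC3 by 0.62 (0.307), and no member's call changed.

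Depth limits HLA-C and TAP2 in PC3, at 4 to 15 reads a library. In 8 of 9 members most exon windows recur on alternate contigs, IFI30 being the exception, and the part of this in their values was not tested on reads.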
